A study of Mus musculus with 32 samples.

Results

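Germ cells of the mouse testis were profiled by RNA-seq during the first wave of spermatogenesis, and 9 genes of spermatogonial stem cell self-renewal are described here: Gfra1, Ret, Zbtb16, Id4, Etv5, Bcl6b, Lhx1, Nanos2 and Eomes. They were taken as a named list and mapped by symbol to the GENCODE mouse annotation, which gave 1 gene identifier for each of the 9 symbols, of 85539 genes in the juvenile transcript table. All mice were C57BL/6J males. There were 28 juvenile mice, 3 at 8 days post-partum (dpp) and 5 at every later age (10 and 12, 14 and 16, and 18 dpp), each giving 1 library of germ cells from its enzyme-digested, washed tubules, with no sorting step for stem cells. The authors collected 5 mice at 8 dpp as well, and left out those that matched the others of that age poorly. The spread at 8 dpp, and any lack of overlap with 18 dpp, is therefore that of the 3 mice kept. There were also 4 samples of adult pachytene and diplotene spermatocytes, each pooled from 6 mice of 9 weeks and enriched by sedimentation at unit gravity to about 90% purity. For the juvenile mice, the authors counted germ cells under the microscope at more than 90% of all cells in each sample. All values are TPM, transcript abundances scaled by length and library total, so the levels of different genes can be set side by side. Read depth cannot be recovered from them and is unknown, and the error of every value is the spread between mice or pools.

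Spermatogonial stem cells renew themselves or enter differentiation, and both fates run side by side in the tubule. Sertoli and peritubular cells secrete GDNF, which binds the co-receptor GFRA1 on the stem cell surface, and the complex signals through the receptor tyrosine kinase RET. GDNF raises the transcription factor genes Etv5, Bcl6b and Lhx1 in cultured stem cells. The helix-loop-helix inhibitor ID4 and the T-box factor EOMES mark subsets of the earliest spermatogonia, while the zinc finger repressor ZBTB16 (PLZF) and the RNA-binding protein NANOS2 hold the cells undifferentiated. During the first wave the testis fills with spermatocytes.

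The germ cell label was checked against marker genes. Ddx4, a germ cell RNA helicase, stood at 127 ± 12.8 TPM at 8 dpp (SD, n = 3), 385 ± 36.8 TPM at 18 dpp (SD, n = 5) and 573 ± 16.4 TPM in adult cells (SD, n = 4). Of the 6 germ cell markers, 4 were higher at 18 than at 8 dpp, 1 was lower and 1 did not pass (limma adjusted p under 0.05). Over all genes 31.8% were higher and 36.3% were lower. Sertoli cell markers were abundant in the juvenile libraries as well, beside the high germ cell counts given above. The 9 genes of that list summed to between 2710 and 3096 TPM at 8 dpp, between 1068 and 1577 TPM at 18 dpp and between 73.2 and 109 TPM in adult cells, and none of the 9 was at 0. Their summed level was thus lower at the age where most self-renewal genes were lower, and their part in the results was not tested. The 5 mice at 18 dpp fell into 2 sets by these markers. Meiotic genes summed to 4203, 4356 and 4298 TPM in mice 1 to 3 and to 2792 and 2769 TPM in mice 4 and 5. In the same order, Sertoli genes summed to 1099, 1068 and 1109 TPM against 1577 and 1454 TPM, and genes of differentiating spermatogonia to 778, 774 and 725 TPM against 499 and 465 TPM. That last sum does not stand for its list, in which 7 of 8 genes were lower at 18 than at 8 dpp and 1 was higher. The sum itself averaged 576 TPM at 8 dpp, 648 TPM at 18 dpp and 1438 TPM in adult cells. Peritubular genes stood at 524 to 586 TPM in mice 1 to 3 and at 1006 and 1034 TPM in the other 2. Results at 18 dpp were therefore computed again without mice 4 and 5 and without mice 1 to 3, a choice made after the values were seen. Counts for the gene lists between 8 and 18 dpp are given where they differ, with values of single genes for some. The part of these marker levels in the results was not tested. TPM is a share of the library, so a gene can also fall because other cells add RNA. Fewer cells of a type, less RNA per cell and such a smaller share cannot be told apart in these libraries.

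Between 8 and 18 dpp, 5 self-renewal genes fell and 1 rose. Gfra1, Ret, Zbtb16, Etv5 and Bcl6b were lower at 18 dpp and Id4 was higher, by limma on log2(TPM + 1) with Benjamini-Hochberg adjusted p under 0.05. These 6 of the 9 reached 3 TPM in at least 1 mouse and so entered the fit of 20368 genes. Lhx1, Nanos2 and Eomes stayed under 3 TPM in every mouse, and their tests come from a second fit with no filter on low values. The age difference was broad: 68.2% of all genes tested were called, 36.3% lower at 18 dpp and 31.8% higher, so a call alone does not set these genes apart. The size of the change did differ from gene to gene. The median log2 difference was -0.97 over the 6 genes and -0.09 over all genes. The log2 difference of Ret was lower than that of all but 3.0% of genes, and those of Gfra1 and Zbtb16 were each lower than all but 5.9%. Etv5 lay at 20.6% and Bcl6b at 30.5% in the same order, and Id4 at 92.0%. Without mice 4 and 5 at 18 dpp 4 fell and 1 rose, and without mice 1 to 3 the counts were 5 and 1. Calls in general also changed with these mice. Of 41089 transcripts, 9450 were lower and 8660 higher with all mice. The numbers were 9877 and 8796 without mice 4 and 5, and 6383 and 7059 without mice 1 to 3. With median-of-ratios scaling and all mice they were 7415 and 10154. The shares of all genes given here and for the lists below are those with all mice and no further scaling. List counts in other settings have no matching share beside them, so a changed count is not a result about a list. The log2 differences without mice 4 and 5 and without mice 1 to 3 were -1.59 and -1.35 for Ret, -1.35 and -1.08 for Gfra1, -1.31 and -1.14 for Zbtb16, -0.84 and -0.50 for Etv5 and 2.14 and 2.11 for Id4, each called (limma adjusted p of at most 0.0043). No mouse at 18 dpp overlapped a mouse at 8 dpp for any of the 6 genes, whereas 32.0% of all genes were lower and 29.0% were higher without overlap.

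**Figure D1:**
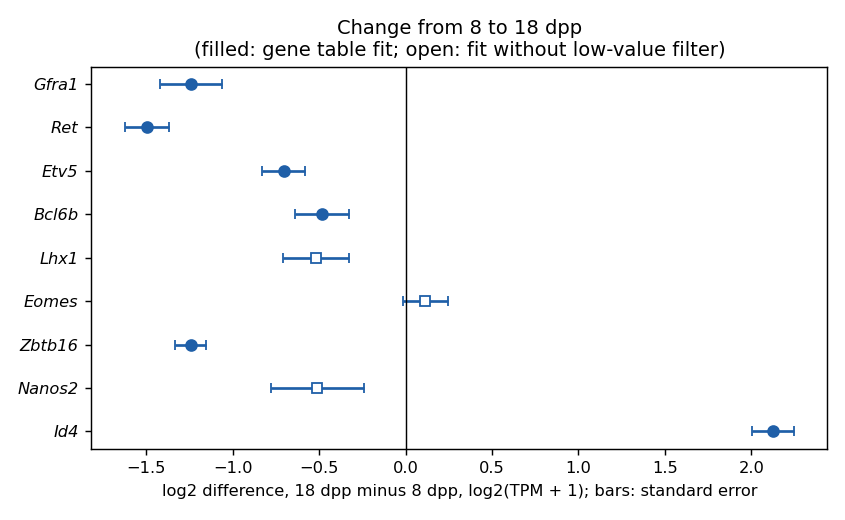
Log2 difference between 18 and 8 dpp for each gene on the log2(TPM + 1) scale, with bars of 1 standard error; filled points come from the fit of 20368 genes and open points from the fit without a filter. Ret lies lowest at -1.49, Id4 alone lies far to the right at 2.12, and Eomes lies at 0.11 with a bar that meets 0. Adding 1 to each TPM shrinks the differences of the low genes shown as open points. The ratio of mean TPM at 8 dpp to that at 18 dpp was 2.93 for Lhx1, 2.21 for Nanos2 and 0.645 for Eomes, beside 2.65 for Gfra1.

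The co-receptor gene Gfra1 lies on the minus strand at chr19:58235604-58455909 (GRCm38). It stood at 11.6, 11.9 and 12.3 TPM in the 3 mice at 8 dpp and at 3.69, 4.70, 3.91, 5.01 and 5.23 TPM in the 5 mice at 18 dpp. Every mouse at 8 dpp was thus far above every mouse at 18 dpp, and the log2 difference was -1.24 ± 0.18 (SE; limma adjusted p = 6.9e-07). Between these ages the level was 11.1 ± 3.13 TPM at 10 dpp, 10.4 ± 2.10 TPM at 12 dpp, 9.30 ± 1.42 TPM at 14 dpp and, by 16 dpp, 6.94 ± 1.40 TPM (SD, n = 5 each). Mouse 1 at 10 dpp stood apart at 16.5 TPM, against 8.40 to 10.6 TPM in the other 4 mice of that age. The adult samples held 1.61, 1.41, 2.06 and 1.35 TPM, each below every juvenile mouse. An antisense gene, Gm16277, overlaps Gfra1 and ranged from 0 to 4.14 TPM in juvenile mice, averaging 1.99 TPM in the youngest mice and 1.45 TPM in the oldest. Whether the counting used strand is not given in the sources used here, so reads from the overlap may be shared between them.

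Most Gfra1 signal was assigned to 3 transcripts. Gfra1-201, an 11-exon transcript, had 5.29 ± 0.14 TPM at 8 dpp (SD, n = 3), against 0.966 ± 0.62 TPM at 18 dpp (SD, n = 5), a log2 difference of -1.75 ± 0.36 (SE; limma adjusted p = 2.5e-04 over 41089 transcripts). Gfra1-203, with 9 exons and a coding sequence shorter by 15 bases (1389 against 1404), had 4.04 ± 1.23 and 1.92 ± 0.70 TPM at the same ages, a log2 difference of -0.79 ± 0.30 (SE; adjusted p = 0.037) that was lost without mice 1 to 3 at 18 dpp (-0.67, adjusted p = 0.19). Gfra1-209 had 1.89 ± 1.91 and 1.38 ± 0.51 TPM, a log2 difference of -0.04 ± 0.56 (SE; adjusted p = 0.98). Gfra1-201 held 44.2% of the gene's TPM at 8 dpp and 21.4% at 18 dpp. The difference between transcripts was not tested, and the assignment of reads among transcripts that share most exons is uncertain: Gfra1-209 was listed at 0 in some mice and above 3 TPM in others of the same age. Over all transcripts, 23.0% were lower at 18 dpp and 21.1% were higher. The promoter window that RefSeq gives for Gfra1 covers 250 bases before to 50 after the start. It is shown with the ETS core CCGGAA (searched on both strands) in capitals. Which of the 3 transcripts starts in it is not given here. ETV5 is itself an ETS family factor, and that core occurs in 14.9% of the 32851 promoter windows of the same table.
Gfra1, chr19:58455349-58455648, minus strand, GRCm38.p6: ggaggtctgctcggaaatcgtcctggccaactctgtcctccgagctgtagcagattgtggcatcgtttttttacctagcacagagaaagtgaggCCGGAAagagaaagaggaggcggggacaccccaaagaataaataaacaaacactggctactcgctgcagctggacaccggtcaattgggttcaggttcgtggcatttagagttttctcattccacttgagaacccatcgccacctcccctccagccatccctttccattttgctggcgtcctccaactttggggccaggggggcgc

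Ret, the signalling receptor of the complex, lies on the minus strand at chr6:118151745-118197718. It fell from 13.4, 13.5 and 12.3 TPM at 8 dpp to 4.05, 3.52, 3.45, 4.21 and 4.86 TPM at 18 dpp, and to 0.09, 0.19, 0.13 and 0.06 TPM in the adult samples. Its log2 difference between 8 and 18 dpp was -1.49 ± 0.13 (SE; limma adjusted p = 8.5e-11), the largest fall among the 6 genes in the fit. The adult level was near 0 for Ret while Gfra1 remained above 1 TPM in each of the 4 samples. Of the 2 annotated Ret transcripts, Ret-202 codes for 1072 residues, and Ret-201 for 1114 residues with a different C-terminal tail. These are the short and long isoforms of the receptor. Ret-202 stood at 11.1 ± 0.65 TPM at 8 dpp (SD, n = 3), against 2.77 ± 0.46 TPM at 18 dpp (SD, n = 5), a log2 difference of -1.70 ± 0.17 (SE; adjusted p = 3.8e-09). Ret-201 stood at 1.94 ± 1.10 and 1.25 ± 0.86 TPM, a log2 difference of -0.42 ± 0.50 (SE; adjusted p = 0.54). The share of Ret TPM given to the short isoform was 85.1% for the mice of 8 dpp, 80.6% and 79.5% at 10 and 12 dpp, 75.3% at 14 dpp, lowest at 16 dpp with 65.9%, and 68.8% at 18 dpp. The long isoform was listed at 0 in at least 1 mouse at 10, 12 and 18 dpp, and the difference between isoforms was not tested.

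**Figure D2:**
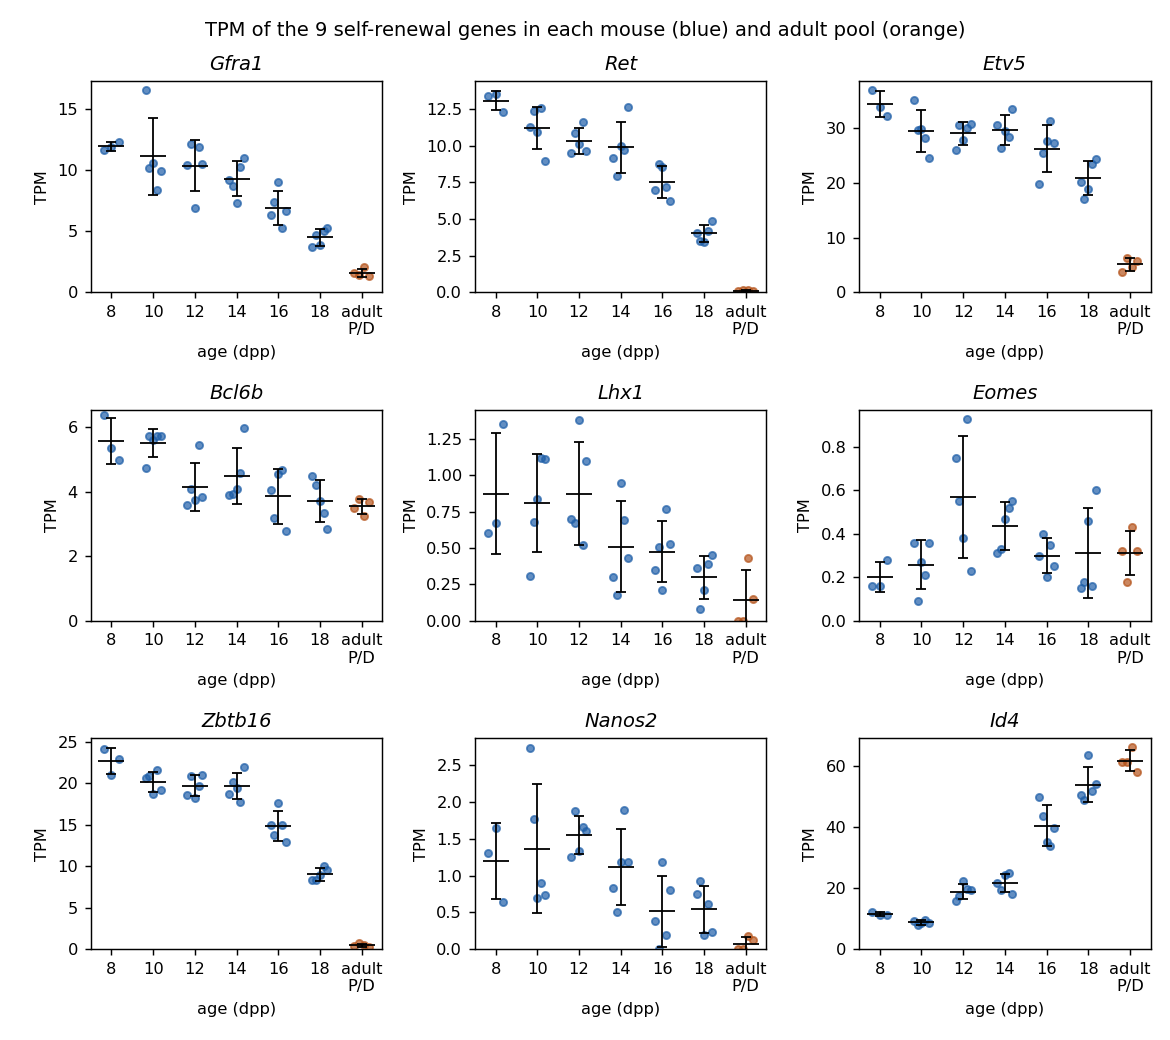
TPM of each gene in every juvenile mouse by age in days post-partum (blue) and in the adult pachytene and diplotene pools (P/D, orange), with black bars for the mean and SD, cut at 0. Gfra1, Ret and Zbtb16 decline most after 14 dpp, Id4 climbs from 8.86 TPM at 10 dpp to 53.9 TPM at 18 dpp, and Lhx1, Nanos2 and Eomes stay under 3 TPM.

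Etv5, an ETS factor required for stem cell maintenance, was the most abundant of the 9 genes at 8 dpp and lies on the minus strand at chr16:22381309-22439719. It stood at 37.0, 33.8 and 32.3 TPM at 8 dpp and at 20.2, 17.2, 18.8, 23.6 and 24.5 TPM at 18 dpp. The groups did not overlap, but the log2 difference of -0.70 ± 0.12 (SE; limma adjusted p = 1.3e-05) was smaller in size than that of either receptor gene. Etv5 held 29.5 ± 3.86, 29.1 ± 2.10 and 29.7 ± 2.67 TPM at 10, 12 and 14 dpp (SD, n = 5 each), a plateau within the spread between mice. In the adult samples it was at 3.72, 6.33, 4.66 and 5.77 TPM.

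Bcl6b, a BTB zinc finger repressor, lies on the minus strand at chr11:70224128-70229798. It went from 6.37, 5.37 and 4.99 TPM at 8 dpp to 4.48, 4.22, 3.72, 3.35 and 2.85 TPM at 18 dpp, a log2 difference of -0.48 ± 0.15 (SE; limma adjusted p = 0.0074). The call did not hold with median-of-ratios scaling, where the difference was -0.34 (limma adjusted p = 0.061), or without mouse 1 at 8 dpp, where it was -0.40 (limma adjusted p = 0.053). Without mice 4 and 5 at 18 dpp it was -0.35 and again not called (limma adjusted p = 0.059), and without mice 1 to 3 it was -0.68 (limma adjusted p = 0.0034). Bcl6b was the one falling gene with an adult level like that at 18 dpp, at 3.49, 3.79, 3.24 and 3.67 TPM.

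Lhx1, a LIM homeobox factor at chr11:84518284-84525535 (minus strand), stood at 0.873 ± 0.41 TPM at 8 dpp (SD, n = 3), against 0.298 ± 0.15 TPM at 18 dpp (SD, n = 5). In the fit without a filter the log2 difference was -0.52 ± 0.19 (SE; limma adjusted p = 0.042), where 15.8% of 60085 genes were lower. The call was lost with median-of-ratios scaling (adjusted p = 0.063), with mice 1 to 3 of each age (0.052) and with only both ages in the model (0.069). It was also lost without mouse 2 or 3 at 8 dpp or mouse 1, 2 or 3 at 18 dpp, left out in turn, with adjusted p from 0.050 to 0.28, and without all 3 of those mice at 18 dpp (-0.38, adjusted p = 0.33). Eomes, a T-box factor at chr9:118478212-118486132 (plus strand), had its highest mean at 12 dpp, 0.568 ± 0.28 TPM (SD, n = 5), and lay between 0.09 and 0.93 TPM over all juvenile mice. Its log2 difference between 8 and 18 dpp was 0.11 ± 0.13 (SE; adjusted p = 0.60), and no difference among the 6 ages passed limma's F test (adjusted p = 0.13, where 32.8% of genes passed without a filter). At levels under 1 TPM, a small difference in these genes would not be detectable.

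Zbtb16 lies on the minus strand at chr9:48654297-48836222 and has a single transcript in the table. It stood at 24.2, 21.1 and 22.9 TPM at 8 dpp and at 8.30, 8.36, 8.96, 10.0 and 9.53 TPM at 18 dpp. Its log2 difference of -1.24 ± 0.09 (SE; limma adjusted p = 2.9e-12) had the smallest standard error of the 6 genes. The level was 20.2 ± 1.19, 19.7 ± 1.26 and 19.6 ± 1.57 TPM at 10, 12 and 14 dpp (SD, n = 5 each), then 14.8 ± 1.81 TPM at 16 dpp. In the adult samples Zbtb16 was at 0.45, 0.72, 0.48 and 0.29 TPM.

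Nanos2, an RNA-binding protein that keeps male germ cells from differentiating and from entering meiosis, is a gene of 1 exon at chr7:18987400-18988962 (plus strand), with an antisense gene, Gm45058, over it. Eomes likewise has an antisense gene, Gm33460. Nanos2 stood at 1.31, 1.65 and 0.64 TPM at 8 dpp, was highest on average at 12 dpp with 1.55 ± 0.25 TPM (SD, n = 5), and stood at 0.75, 0.92, 0.19, 0.62 and 0.23 TPM at 18 dpp. Mice at 8 and 18 dpp overlapped, and that comparison did not pass the test, with a log2 difference of -0.51 ± 0.27 (SE; limma without a filter, adjusted p = 0.17). With 16 and 18 dpp together against 8 and 10 dpp, the difference was -0.57 ± 0.18 (SE; adjusted p = 0.014) for Nanos2 and -0.40 ± 0.13 (SE; adjusted p = 0.015) for Lhx1, where 16.6% of genes were lower. Neither call held with mice 1 to 3 of each age alone (adjusted p = 0.050 and 0.054), and that of Lhx1 was also lost without mice 1 to 3 at 18 dpp (adjusted p = 0.10). Nanos2 was listed at 0 in 2 of the 4 adult samples and at 0.18 and 0.13 TPM in the others. The RefSeq promoter window of Nanos2 holds no CpG, as do 5.4% of all windows.

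Id4 was the one gene of the 6 in the fit that rose. This gene encodes a helix-loop-helix protein without a DNA-binding domain and marks stem cells among spermatogonia. It lies on the plus strand at chr13:48261228-48266026 with 1 transcript of 3 exons. Its level was 12.3, 11.3 and 11.1 TPM at 8 dpp and 9.42, 7.80, 8.65, 9.67 and 8.74 TPM at 10 dpp. It was 15.7 to 22.3 TPM at 12 dpp, 18.3 to 25.1 TPM at 14 dpp and 33.8 to 50.1 TPM at 16 dpp, and then 50.7, 49.1, 63.7, 51.9 and 54.2 TPM at 18 dpp. Every mouse from 12 dpp on lay above every mouse at 8 and 10 dpp. The log2 difference between 8 and 18 dpp was 2.12 ± 0.12 (SE; limma adjusted p = 2.5e-14). In adult pachytene and diplotene cells Id4 was at 61.3, 61.4, 66.3 and 58.0 TPM, while Ret, Zbtb16, Lhx1, Nanos2 and Eomes were under 1 TPM in every adult sample. The antisense gene A330033J07Rik, which overlaps Id4, did not exceed 0.24 TPM in any juvenile mouse or 0.19 TPM in any adult sample.

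The Id4 promoter window is shown as the counterpart of the Gfra1 window, since the 2 genes moved in opposite directions, with the GC box GGGCGG (either strand) in capitals. It holds 5 GC boxes and 39 CpG, more CpG than 95.6% of windows, and no ETS core. A GC box occurs in 35.7% of all windows. The Gfra1 window holds 12 CpG and no GC box.
Id4, chr13:48260866-48261165, plus strand, GRCm38.p6: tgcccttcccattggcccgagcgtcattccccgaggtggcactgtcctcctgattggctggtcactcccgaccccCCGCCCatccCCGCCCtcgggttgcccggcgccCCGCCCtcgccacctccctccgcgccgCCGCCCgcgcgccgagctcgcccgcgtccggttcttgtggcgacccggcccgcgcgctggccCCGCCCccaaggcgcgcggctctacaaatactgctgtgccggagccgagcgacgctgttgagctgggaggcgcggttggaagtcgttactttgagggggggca

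Of the other members with a window in the table, the more upstream of 2 Etv5 starts held 3 GC boxes and 37 CpG, and the other start held none and 19 CpG. The Lhx1 window held 31 CpG, the Eomes window 10, and neither held a GC box or an ETS core. The E-box CANNTG, the site bound by helix-loop-helix factors, occurred 3 times in the Gfra1 window, 2 times in the first Etv5 window and in no other member window, against 72.3% of all windows with at least 1. Windows were given for 6 of the 9 genes, and Ret, Zbtb16 and Bcl6b had none. These matches are letters in a window and not sites of binding.

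Between neighbouring ages, the steps with calls among the 6 genes were those with many calls over all genes. From 8 to 10 dpp none of the 6 genes passed the test, where 1.20% of all genes did by limma. By unadjusted limma p under 0.05, Id4 alone would have been counted, at -0.35 ± 0.12 (SE). From 10 to 12 dpp Id4 rose, with a log2 difference of 1.01 ± 0.10 (SE; adjusted p = 8.0e-08), and it was the only one of the 6 to be called, where 21.4% of all genes were (9.39% lower). Bcl6b joined it without mouse 4 at 12 dpp, so that 2 were called, as they were without mice 4 and 5 or without mice 1 to 3 at 18 dpp. From 12 to 14 dpp again none of the 6 passed, with no unadjusted p under 0.05 among them, and 0.172% of all genes did (0.157% higher). From 14 to 16 dpp, where 24.0% of genes were called (2594 higher and 2296 lower; 2860 and 1454 with median-of-ratios scaling, 2407 and 3375 with quantile normalization), Id4 rose by 0.86 ± 0.10 and Zbtb16 fell by 0.38 ± 0.08 on the log2 scale (SE; adjusted p = 5.8e-07 and 6.2e-04). Ret was also called there at -0.34 ± 0.11 (SE; limma adjusted p = 0.026), a call that was lost with mice 1 to 3 of each age (adjusted p = 0.41) and without mouse 7 at 14 dpp or mouse 1 or 5 at 16 dpp (adjusted p from 0.066 to 0.098). Gfra1 was at -0.38 ± 0.15 in that step and did not pass (SE; adjusted p = 0.071). From 16 to 18 dpp, where 54.0% of genes were called (23.4% higher and 30.6% lower), 5 of the 6 were: Ret, Zbtb16, Gfra1 and Etv5 were lower, by -0.77, -0.65, -0.52 and -0.32, and Id4 was higher by 0.41. The split over all genes depended on the scaling, with 4775 higher and 6227 lower, but 6193 higher and 3630 lower with median-of-ratios factors. It also depended on the mice: without mice 1 to 3 at 18 dpp 1996 genes were higher and 1456 lower. Without those mice only Ret and Zbtb16 of the 6 were called in this step (-0.62 and -0.55), while Gfra1 was at -0.36, Etv5 at -0.11 and Id4 at 0.40 (limma adjusted p = 0.26, 0.61 and 0.051), and without mice 4 and 5 the 5 calls stood. The Etv5 call in that step was lost with median-of-ratios scaling (limma adjusted p = 0.17) and without mouse 4 at 16 dpp or mouse 2 at 18 dpp (0.055 each), and the Id4 call with mice 1 to 3 of each age (0.053). Bcl6b was at -0.03 ± 0.13 in this last step (SE; adjusted p = 0.86). Each of the 6 genes differed among the 6 ages by limma's F test, as did 77.6% of all genes, with adjusted p from 1.0e-16 for Id4 to 0.0072 for Bcl6b. The library index in the sample titles fell in 2 sets, with 13 indexes used once among mice of 8 to 12 dpp and again among mice of 14 to 18 dpp. Every step with a call of these genes lay within 1 of these sets, while 8 and 18 dpp lay in different ones.

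Compared in pairs of ages, 16 and 18 dpp against 8 and 10 dpp (10 against 8 mice), the same genes moved in the same directions: 5 lower and 1 higher, beside 71.1% of all genes called, 36.7% lower and 34.4% higher. The log2 differences were -1.01 ± 0.09 for Ret, -0.92 ± 0.12 for Gfra1, -0.83 ± 0.06 for Zbtb16, -0.46 ± 0.10 for Bcl6b, -0.44 ± 0.08 for Etv5 and 2.09 ± 0.08 for Id4 (SE; limma adjusted p of at most 2.4e-04). Over all genes this comparison called 7012 higher and 7472 lower, 7841 higher and 6516 lower with median-of-ratios factors, and 5792 higher and 9374 lower with quantile normalization.

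Whether the genes kept in proportion was examined by the ratio of each to Gfra1 within each mouse, on log2(TPM + 1) values. Relative to Gfra1, Id4 rose from -0.19 ± 0.29 at 8 and 10 dpp (SD, n = 8) to 2.85 ± 0.57 at 16 and 18 dpp (SD, n = 10), a difference of 3.04 with a 95% interval of 2.57 to 3.50 (two-sided exact permutation test, adjusted p = 9.1e-05 over 4 ratios). The unadjusted p of 2.3e-05 is the smallest these permutations can give. Id4 and Gfra1 had already been called in opposite directions in these same mice, so this p adds no separate support. The ranges of the groups lay far apart, from -0.75 to 0.18 and from 1.84 to 3.72. Etv5 also rose relative to Gfra1, from 1.39 ± 0.19 to 1.89 ± 0.29, a difference of 0.49 with an interval of 0.24 to 0.74 (exact permutation, adjusted p = 0.0020). For Ret the difference was -0.08, with an interval of -0.33 to 0.18 (exact permutation, adjusted p = 0.54). For Zbtb16 it was 0.09, with an interval of -0.13 to 0.32 (exact permutation, adjusted p = 0.54). For Ret and Zbtb16, changes relative to Gfra1 within these bounds remain compatible with the values. The smallest change that this number of mice could detect was not computed.

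**Figure D3:**
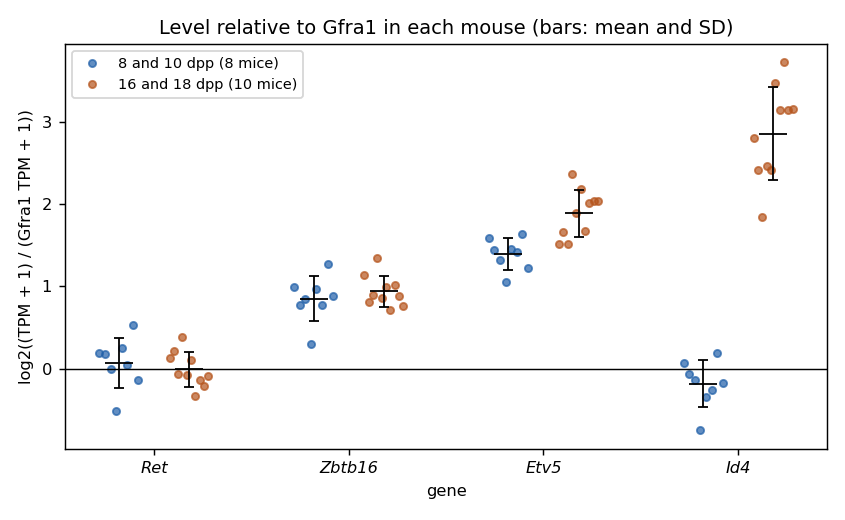
Level of Ret, Zbtb16, Etv5 and Id4 relative to Gfra1 in each mouse, as log2((TPM + 1) / (Gfra1 TPM + 1)), at 8 and 10 dpp (blue, 8 mice) and at 16 and 18 dpp (orange, 10 mice), with black bars for the mean and SD. Points of Ret and Zbtb16 overlap between age groups, and those of Id4 do not, at -0.75 to 0.18 against 1.84 to 3.72.

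The summed level of all 9 genes was similar at both ends of the series. It was 102 ± 4.67 TPM at 8 dpp (SD, n = 3), against 97.2 ± 6.52 TPM at 18 dpp (SD, n = 5). Without Id4 the sum went from 90.0 ± 4.03 TPM to 43.3 ± 4.25 TPM, and to 11.4 ± 1.24 TPM in the adult samples (SD, n = 4). Id4 made up 11.4% of the sum at 8 dpp, 55.4% at 18 dpp and 84.4% in adult cells. The order of the levels changed accordingly. At 8 dpp it ran Etv5, Zbtb16, Ret, Gfra1, Id4, Bcl6b, Nanos2, Lhx1 and Eomes, in which Ret overlapped Gfra1, Gfra1 overlapped Id4, and Nanos2 overlapped Lhx1 among mice. At 18 dpp Id4 stood first, followed by Etv5 and Zbtb16 without overlap, while Gfra1 overlapped Ret and Ret overlapped Bcl6b. The adult values were made in a separate table and are set beside the juvenile ones without a test. There the order began with Id4, Etv5 and Bcl6b, and Gfra1 was the only other gene above 1 TPM.

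The families of these genes were examined from a list of 14 relatives, of which 10 entered the fit. Between 8 and 18 dpp 7 of the 10 fell, 1 rose and 2 did not pass, with a median log2 difference of -0.61 (-0.09 over all genes). Over all genes 36.3% fell and 31.8% rose. With median-of-ratios scaling 5 fell and 1 rose, and without mice 1 to 3 at 18 dpp 4 fell and 1 rose. Without mice 4 and 5 at 18 dpp 8 fell and 1 rose. The riser was Gfra4, the co-receptor for persephin, another ligand of the GDNF family. It stood at 4.97 ± 1.05 TPM at 8 dpp (SD, n = 3), against 24.7 ± 5.43 TPM at 18 dpp (SD, n = 5), a log2 difference of 2.10 ± 0.26 (SE; limma adjusted p = 5.6e-08), and at 65.2 ± 8.05 TPM in adult cells (SD, n = 4). The mean levels of Gfra1 and Gfra4 crossed between 14 and 16 dpp: Gfra1 was the higher of the pair in mean level at 14 dpp (9.30 against 5.02 TPM), and Gfra4 was at 16 dpp (10.1 against 6.94 TPM). Gfra2 and Gfra3 were at 1.89 and 1.39 TPM at 18 dpp, and in adult cells Gfra2 was at 7.26 ± 0.24 TPM (SD, n = 4) and Gfra3 was listed at 0 in each sample.

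The other Id genes did not share the direction of Id4. Id2, a helix-loop-helix inhibitor found in many tissues, went from 167 to 76.3 TPM in mean level between 8 and 18 dpp, a log2 difference of -1.15 ± 0.15 (SE; limma adjusted p = 1.7e-07), and to 1.26 ± 0.17 TPM in adult cells. Id1 and Id3, named after their values were seen to complete the family, had log2 differences of -0.50 ± 0.21 and -1.03 ± 0.21 (SE; limma adjusted p = 0.041 and 1.1e-04), and the call of Id1 was lost with median-of-ratios scaling (adjusted p = 0.15). Without mice 1 to 3 at 18 dpp Id1 was at -0.13 (limma adjusted p = 0.68), Id2 fell by 0.74 and Id3 by 0.37 on the log2 scale (limma adjusted p = 1.0e-04 and 0.046). In adult cells Id1 and Id3 were under 1 TPM in every sample, where Id4 exceeded 58 TPM. Etv4, an ETS factor close to Etv5, went from 8.27 to 2.45 TPM in mean level, a log2 difference of -1.49 ± 0.28 (SE; limma adjusted p = 3.9e-05). Lhx5, Tbr1 and Tbx21, relatives of Lhx1 and Eomes, had mean levels under 1 TPM at 8 and 18 dpp and in adult cells, and were not in the fit.

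**Figure D4:**
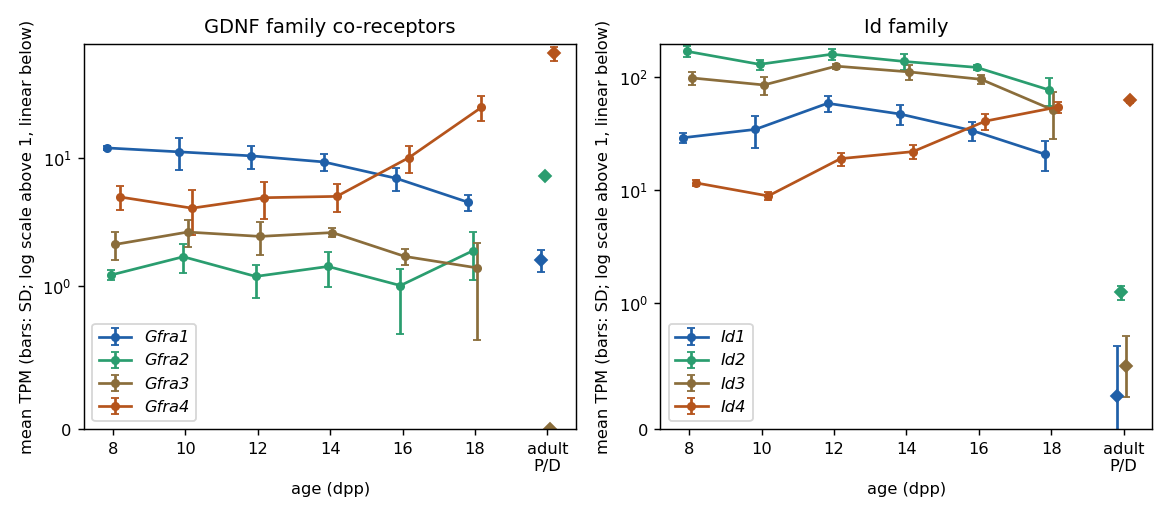
Mean TPM with SD by age for the 4 GDNF family co-receptors (left) and the 4 Id genes (right), with the adult pools as diamonds, on an axis that is logarithmic above 1 TPM and linear below. Gfra4 and Id4 climb to 65.2 and 61.8 TPM in adult cells, while Gfra1 and Id1, Id2 and Id3 are lower there than at any juvenile age.

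The wider GDNF pathway was followed with 24 genes for ligands, co-receptors, adaptors and kinases, of which 20 entered the fit. Between 8 and 18 dpp 12 of the 20 fell, 2 rose and 6 did not pass, with a median log2 difference of -0.53, where 36.3% of all genes fell and 31.8% rose. With median-of-ratios scaling 11 fell and 3 rose, and without mice 1 to 3 at 18 dpp 10 fell and 2 rose, with a median of -0.25. Without mice 4 and 5 at 18 dpp 14 fell and 2 rose, with a median of -0.67. The ligand Gdnf fell from 12.5 to 19.6 TPM in the mice at 8 dpp to 3.05 to 5.19 TPM at 18 dpp (log2 difference -1.82 ± 0.15, SE; limma adjusted p = 4.8e-11), and was at 0.455 ± 0.13 TPM in adult cells (SD, n = 4). Gdnf is a product of somatic cells, and the Sertoli markers fell over the same ages as given above. Src, a kinase that relays the signal, had a log2 difference of -1.45 ± 0.13 (SE; limma adjusted p = 2.3e-10). The genes that rose were Gfra4 and Ncam1, an alternative receptor for GDNF with a log2 difference of 0.60 ± 0.19 (SE; limma adjusted p = 0.0072), a call lost without mice 1 to 3 at 18 dpp (0.33, adjusted p = 0.22). Dok5, an adaptor of RET, was near 0 throughout, at 0.137 TPM at 8 dpp and 0 in adult cells. With quantile normalization 14 fell and 1 rose, and the sign differed for 3 of the 20 genes.

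Among 8 niche factors, 4 of the 7 in the fit fell, none rose and 3 did not pass (median log2 difference -0.53), against 36.3% lower among all genes. With median-of-ratios scaling 3 fell, and Cxcl12, a chemokine, was at -0.36 (limma adjusted p = 0.060; -0.53 with adjusted p = 0.011 without that scaling). Without mice 4 and 5 at 18 dpp 5 fell, with a median of -0.95, and without mice 1 to 3 3 fell and 1 rose, with a median of -0.08. Of the genes that fell, Kitl, the ligand of KIT, had a log2 difference of -1.82 ± 0.13 and Wnt5a, a secreted signalling factor, of -1.64 ± 0.17 (SE; limma adjusted p = 2.4e-12 and 3.4e-09). Fgf8 averaged 0.47 TPM at 8 dpp and was not in the fit.

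A list of 20 other genes of undifferentiated spermatogonia was followed beside the 9. Of the 19 in the fit, 14 fell, none rose and 5 did not pass, with a median log2 difference of -1.13, beside 36.3% lower and 31.8% higher among all genes. With median-of-ratios scaling 13 fell and 1 rose, and with quantile normalization 17 fell. Without mice 1 to 3 at 18 dpp 13 fell, and without mice 4 and 5 the number was 15. Itga6, an integrin used to enrich stem cells, had the largest difference at -1.61 ± 0.12, followed by Mycn, a growth-promoting transcription factor, at -1.48 ± 0.11 and Gpr125 (Adgra3), a surface receptor of these cells, at -1.42 ± 0.09 (SE; limma adjusted p of at most 3.8e-12). Pax7, a marker of a rare stem cell subset, averaged under 0.3 TPM at 8 and 18 dpp. Genes of differentiating spermatogonia fell as well: 7 of 8 were lower and 1 was higher (5 and 1 with median-of-ratios scaling, and likewise without mice 1 to 3 at 18 dpp). The largest differences there were 2.77 ± 0.26 for Dmrtb1, a factor of the mitosis to meiosis switch, -2.03 ± 0.11 for the cyclin gene Ccnd2 and -1.35 ± 0.13 for Sohlh1, a helix-loop-helix factor of spermatogonia (SE; limma adjusted p of at most 6.0e-10). All 7 meiotic genes in the fit rose (6 with quantile normalization, and 6 without mice 4 and 5 at 18 dpp), with a median of 3.21, and the meiotic list summed to 259 ± 53.0 TPM at 8 dpp, 3684 ± 826 TPM at 18 dpp and 8485 ± 164 TPM in adult cells (SD). For the somatic lists, 8 of 9 Sertoli genes fell and 1 rose (7 and 1 without mice 1 to 3 at 18 dpp). The counts were 3 higher of 6 for Leydig cells, 1 lower of 5 for peritubular cells, 4 higher of 5 for macrophages, 1 higher and 1 lower of 4 for endothelial cells and 0 of 5 for red blood cells. Against 36.3% lower and 31.8% higher among all genes, lists this short with 3 of 6, 1 of 5 or 1 of 4 called lie near the background. With quantile normalization no Leydig gene and 2 macrophage genes were called. These counts also depended on the mice at 18 dpp. Without mice 4 and 5 there were 0 Leydig, 2 macrophage and 0 endothelial genes higher, and 3 peritubular and 2 endothelial genes lower. Without mice 1 to 3 there were 3 Leydig, 5 macrophage, 1 peritubular, 1 endothelial and 1 red blood cell genes higher, and no peritubular or endothelial gene lower. Calls over all transcripts also differed between these settings, as given above, so a changed count is not a result about a list.

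**Figure D5:**
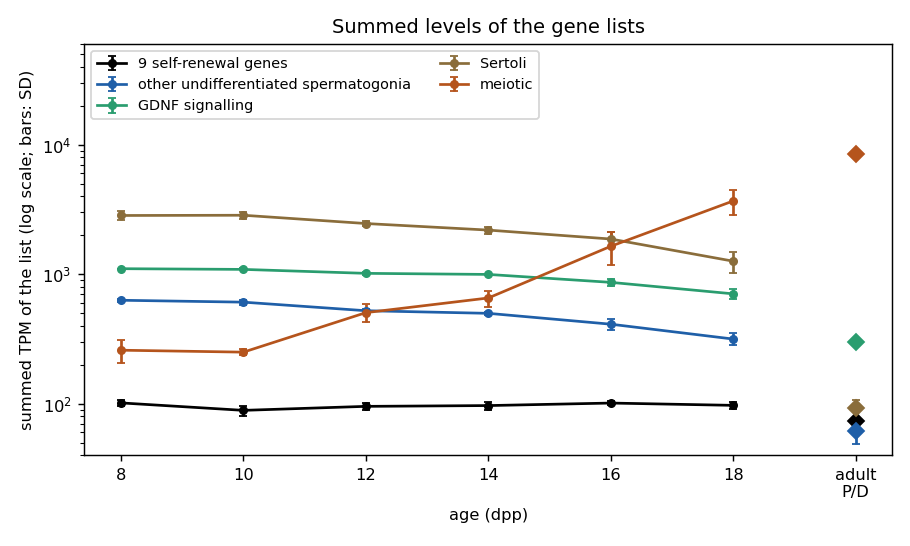
Summed TPM of gene lists by age (mean and SD, log scale), with the adult pools as diamonds. The mean of the 9 self-renewal genes lies between 88.9 and 102 TPM at the juvenile ages, while Sertoli markers and other undifferentiated spermatogonia genes decline and meiotic genes climb to 8485 TPM in adult cells.

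Across mice of the same age, the self-renewal genes were compared with Gfra1. After each age's mean was subtracted, Pearson's r of Gfra1 with the other 8 genes over 28 mice ran from -0.59 to 0.46 (100000 permutations within ages, adjusted over the 8). It passed for Lhx1 alone, with r = -0.59 (permutation, adjusted p = 0.028) and Spearman's rho = -0.48 (permutation, adjusted p = 0.14). Without the 2 mice farthest in Gfra1, mouse 1 at 10 dpp and mouse 3 at 12 dpp, r was -0.35 (permutation, adjusted p = 0.48), so the relation rests on those mice. None passed either without mouse 4 at 10 dpp, mouse 3 at 14 dpp or mouse 3 at 16 dpp, left out in turn, and 2 passed without mouse 2 or mouse 4 at 16 dpp. The r of Gfra1 was 0.32 with Ret (rho = 0.40) and 0.34 with Zbtb16 (rho = 0.29), with adjusted permutation p of 0.21 and 0.20. The corresponding r was 0.37 with Etv5 (rho = 0.41), 0.46 with Nanos2 (rho = 0.35), 0.28 with Eomes (rho = 0.27), -0.03 with Bcl6b (rho = -0.12) and -0.24 with Id4 (rho = -0.22), with adjusted permutation p from 0.12 to 0.89. Without those 2 mice, r lay between -0.22 and 0.43 for the 7 genes other than Lhx1.

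As a description of the pattern over all 28 mice, the genes with a symbol whose log2(TPM + 1) was most like that of each self-renewal gene were listed. These r values include the differences between ages, and after each age's mean was subtracted the same pairs had r from 0.41 to 0.83. For Gfra1 they were Spred2 (0.93), Egln1 (0.92) and Sema4d (0.92). For Ret they were Ssbp3 (0.97), Llgl1 (0.97) and Flot2 (0.97), and for Zbtb16 they were Furin (0.97), Usp22 (0.97) and 2410002F23Rik (0.97). Id4 was most like Pdha2, Dmrtc2 and Psma8 (0.98 each), a testis form of pyruvate dehydrogenase, a germ cell DM-domain factor and the spermatocyte proteasome subunit. Etv5 was most like Washc2 (0.93), Klf11 (0.91) and Cacnb3 (0.91), and Bcl6b was less closely matched by any gene, with Cngb1 (0.80), 2610005L07Rik (0.78) and Fam126b (0.78). Among the self-renewal genes themselves Ret and Zbtb16 were the closest pair (r = 0.96), and Id4 had r from -0.84 to -0.69 with the 5 others in the fit. With each age's mean subtracted, r was 0.48 for Ret with Zbtb16 and 0.54 for Ret with Etv5. That of Id4 with the 5 others then ran only from -0.29 to -0.09.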

How the data were processed

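RNA-seq of 32 samples was analysed. The authors aligned poly-A reads with Bowtie 1.0.0 and computed TPM with RSEM 1.2.8, versions as in the submitters' processing notes; whether counting used strand is not given in the sources used here. Transcript values of the juvenile mice and gene values of the adult samples were deposited in TPM. Gene values of the juvenile mice, planned for as TPM, turned out to be deposited as a score, exp(log2(TPM + 1)) - 1, and was converted back; for the self-renewal genes it then lay within 0.01 TPM of the summed transcripts. Columns of the authors' substage calls in the deposited gene table were not used.

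Levels on the log2(TPM + 1) scale were fitted by limma (3.58.1, under R 4.3.3) with 6 ages in 1 model and a variance prior that depends on the mean. Benjamini-Hochberg adjustment ran over the whole gene table, whose genes reach 3 TPM in some mouse. Ratios were compared by two-sided exact permutation, with intervals by inverting that test, and correlations by 100000 permutations within ages. The limma fit and the exact permutation test were tried on simulated data, and the intervals and correlations were not. The data simulated for limma held far fewer changed genes than these libraries. Genes named beside the 9 were, in each list, the 3 called genes of largest difference between 8 and 18 dpp and those near 0, and the 3 genes most like each gene. The genes and lists were chosen with earlier results of these data known. Alternatives covered the pseudocount, filters, summed transcripts, 2 scalings, the prior variance, mice 1 to 3 alone, a replicate block, leaving out each mouse and, chosen after seeing the data, leaving out mice 4 and 5 or mice 1 to 3 at 18 dpp. Positions came from GENCODE M21 on GRCm38, and promoter windows from RefSeq on GRCm38.p6.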

Additional observations from a re-analysis of the deposited data

Results flagged for a closer look

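In 3 of the 54 groups of 4 or 5 samples examined over the 9 genes, 1 mouse stood apart from the others of its age by Dixon's test at the 95% level; chance alone gives about 1 in 20. Gfra1 was at 16.5 TPM in mouse 1 at 10 dpp, against 8.40 to 10.6 TPM in the other 4. Bcl6b was at 4.75 TPM in the same mouse, against 5.60 to 5.74 TPM in the others. Bcl6b was at 5.44 TPM in mouse 4 at 12 dpp, against 3.59 to 4.08 TPM in the others.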

How the results depend on the processing

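The counts of genes called lower and higher at 18 dpp and at 16 and 18 dpp together stayed within 1.5 times, and none of the 9 genes reversed, under every alternative run. The scalings shifted all genes: the median log2 difference between 18 and 8 dpp was -0.09, 0.05 with median-of-ratios factors and -0.26 with quantile normalization, so differences of that size depend on the scaling. The number of genes called from 10 to 12 dpp was 1, but 2 with one prior variance and 2 with mice 1 to 3 only (Bcl6b was added), 2 without 18 dpp mice 4 and 5, 2 without 18 dpp mice 1 to 3, and 1 to 2 when each mouse was left out. From 16 to 18 dpp 5 genes were called, but 2 without 18 dpp mice 1 to 3, where 3452 genes of the whole table were called in place of 11002; these 2 settings at 18 dpp were chosen after seeing the data. The number of genes correlated with Gfra1 within ages was 1, but 0 without the 2 farthest mice, 0 with log2(TPM + 0.1), 0 with mice 1 to 3 only, and 0 to 2 when each mouse was left out. From 12 to 14 dpp, 35 genes of the whole table were called, and 7 without a filter, 16 with median-of-ratios factors, 12 with quantile normalization, 1 with mice 1 to 3, 107 and 80 without mice 4 and 5 or mice 1 to 3 at 18 dpp, and 0 with the replicate block; the cause was not tested. When each mouse was left out this count ran from 2 to 129. From 8 to 10 dpp the 245 calls became 131 with that block and 398 and 393 in those settings at 18 dpp, and ran from 106 to 288 when each mouse was left out. Mice of different ages share only a replicate number: over 57 same-numbered pairs the median correlation of deviations was 0.02, and 3 pairs exceeded 0.1. With the replicate block the numbers of the 6 genes called between 8 and 18 dpp were unchanged, at 5 lower and 1 higher, and Ret was no longer called from 14 to 16 dpp (limma adjusted p = 0.22). TPM gives no depth, which limits what can be said of Lhx1, Nanos2 and Eomes.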
